A study of Homo sapiens with 8 samples.

Results

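The GIMAP genes encode small GTP-binding proteins of the immune system (GTPases of the immunity-associated protein family), which share an AIG1-type GTP-binding domain. The human genes lie side by side in a single cluster. They were followed here as every probe set annotated to GIMAP1, GIMAP2, GIMAP4, GIMAP5, GIMAP6, GIMAP7 or GIMAP8 and to no other gene, which gave 13 probe sets for 7 genes among 54675 probe sets on the array. A probe set is the group of short probes that the array uses to read a transcript. Of the 13, 12 lay above the median of their array in at least 2 of the 8 arrays and were tested, together with 30816 probe sets in all. The second GIMAP8 probe set (240646_at) lay below the median on all 8 arrays, between 3.48 and 4.68 on the log2 scale, and was not tested.

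All 8 arrays came from ALL-SIL, a human T-ALL (T-cell acute lymphoblastic leukemia) cell line that expresses the homeobox gene TLX1, and formed 4 groups of 2. In the co-culture experiment, the cells carried a lentiviral TCRα/β-GFP vector. They were placed for 48 h with OP9-DL1 cells (mouse stroma displaying the Notch ligand DL1) or had no co-culture (labelled TCR_activation and no_TCR_activation). In the hairpin experiment, cells carried either a lentiviral hairpin against TLX1 or the shRNA-pLKO.1-puro control, both under puromycin selection (labelled shRNA_TLX1 and shRNA_control). A single cell line and a single TLX1 hairpin were used, the co-culture contrast changes stroma, Notch ligand and receptor engagement together, and the labels leave unsaid whether replicates were separate cultures. The p-values therefore cover only array-to-array spread, possibly technical.

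GIMAP proteins sit on or near intracellular membranes, and several of them are known for keeping lymphocytes alive. GIMAP5, found on lysosomes, is required for survival of naive T cells in rodents, and GIMAP1, found at the Golgi, for survival of mature T and B cells. GIMAP2 coats lipid droplets and can have its GTP hydrolysis switched on by GIMAP7, GIMAP6 binds the autophagy protein GABARAPL2, GIMAP4 is known to hasten T-cell death once apoptosis has begun, and GIMAP8 is the longest member, with several GTP-binding domains. The genes rise during T-cell maturation, and GIMAP5 has been described as a Notch-dependent survival gene in T-cell leukemia.

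In RefSeq's GRCh38.p14 table the members occupy 293 kb of chromosome 7, from 150450630 to 150743646, in the order GIMAP8, GIMAP7, GIMAP4, GIMAP6, GIMAP2, GIMAP1 and GIMAP5. GIMAP6 lies on the minus strand and the others on the plus strand. The 250 bases before the annotated start were found for all 7 members. They are shown for GIMAP8 and GIMAP4, the members with the largest differences after co-culture, and for GIMAP7 and GIMAP2, which changed least among the genes with 1 tested probe set. Capitals mark AGGAAG or its reverse complement CTTCCT, the core letters of ETS family sites.
GIMAP8, chr7:150450380-150450629, plus strand: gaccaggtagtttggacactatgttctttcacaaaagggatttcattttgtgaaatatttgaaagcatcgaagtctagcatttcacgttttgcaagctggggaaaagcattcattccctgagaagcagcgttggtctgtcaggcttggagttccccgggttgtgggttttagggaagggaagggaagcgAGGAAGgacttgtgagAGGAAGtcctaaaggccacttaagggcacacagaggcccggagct
GIMAP4, chr7:150567140-150567389, plus strand: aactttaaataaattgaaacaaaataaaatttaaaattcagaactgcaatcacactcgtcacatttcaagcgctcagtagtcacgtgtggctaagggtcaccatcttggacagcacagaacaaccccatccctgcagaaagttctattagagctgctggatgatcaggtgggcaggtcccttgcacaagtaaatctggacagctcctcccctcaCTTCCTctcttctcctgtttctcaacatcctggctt
GIMAP7, chr7:150514622-150514871, plus strand: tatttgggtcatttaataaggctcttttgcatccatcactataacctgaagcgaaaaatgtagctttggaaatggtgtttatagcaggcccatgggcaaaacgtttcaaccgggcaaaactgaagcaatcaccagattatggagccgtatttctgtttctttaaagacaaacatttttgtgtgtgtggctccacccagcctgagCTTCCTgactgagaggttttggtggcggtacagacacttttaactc
GIMAP2, chr7:150685456-150685705, plus strand: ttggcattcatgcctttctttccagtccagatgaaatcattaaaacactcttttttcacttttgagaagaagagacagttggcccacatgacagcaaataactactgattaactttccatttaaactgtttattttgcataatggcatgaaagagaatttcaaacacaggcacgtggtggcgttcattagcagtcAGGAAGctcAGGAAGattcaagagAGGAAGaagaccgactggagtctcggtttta

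All 7 windows held AGGAAG on either strand, against 28.7% of 35097 windows of the same length in the RefSeq table. In GIMAP8 the matches began 61 and 45 bases before the start, in GIMAP4 36, in GIMAP7 46 and in GIMAP2 55, 46 and 31. The motifs were picked after some of these windows had been read, so the count is a description. On both strands, TGTGGT (RUNX) was in 0 of the 7 windows against 11% of all, TGTTTAC (FOXO) in 0 against 2.98%, TGGGAA (the Notch factor RBPJ) in 1, that of GIMAP1, against 20.9%, and CANNTG (E-box) in 4 against 61.8%. No match overlapped a match of another motif. The longest run common to any pair of windows, 14 bases in GIMAP7 and GIMAP1, was cctgagCTTCCTga. The letters in capitals stand both in the members that fell after co-culture and in members that did not pass the test there.

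Before the member values, the state of the arrays bears on them. Over all probe sets, arrays of 1 group had an r of 0.997 to 0.998 after or without co-culture and of 0.986 to 0.993 for the hairpins, and arrays of different experiments of 0.942 to 0.951. The median SD over tested probe sets was 0.07 and 0.05 in the groups without and with co-culture, against 0.17 for the control hairpin and 0.11 for the TLX1 hairpin (log2, n = 2 each). For that reason each experiment was fitted on its own with limma. The shRNA_control replicate 2 array had the lowest mean correlation with the other arrays of its experiment, 0.987 against 0.991 for each of the other 3. The targeted gene, TLX1, stood at 8.66 and 8.27 with the control hairpin and at 7.98 and 7.88 with the hairpin against it, lower as labelled but not past the threshold (log2 change -0.53, SE 0.19, limma adjusted p = 1). The mean over 14 of 14 T cell markers was well above the array median of about 5.30. It was 9.56 to 9.62 in the co-culture experiment and 8.91 to 9.19 in the hairpin experiment. Not every marker was: CD8B had group means of 5.73 to 6.04. The mean over the 14 was lowest in shRNA_control replicate 2, in the group where CD28 varied most (6.02 ± 2.53, SD, n = 2).

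**Figure D1:**
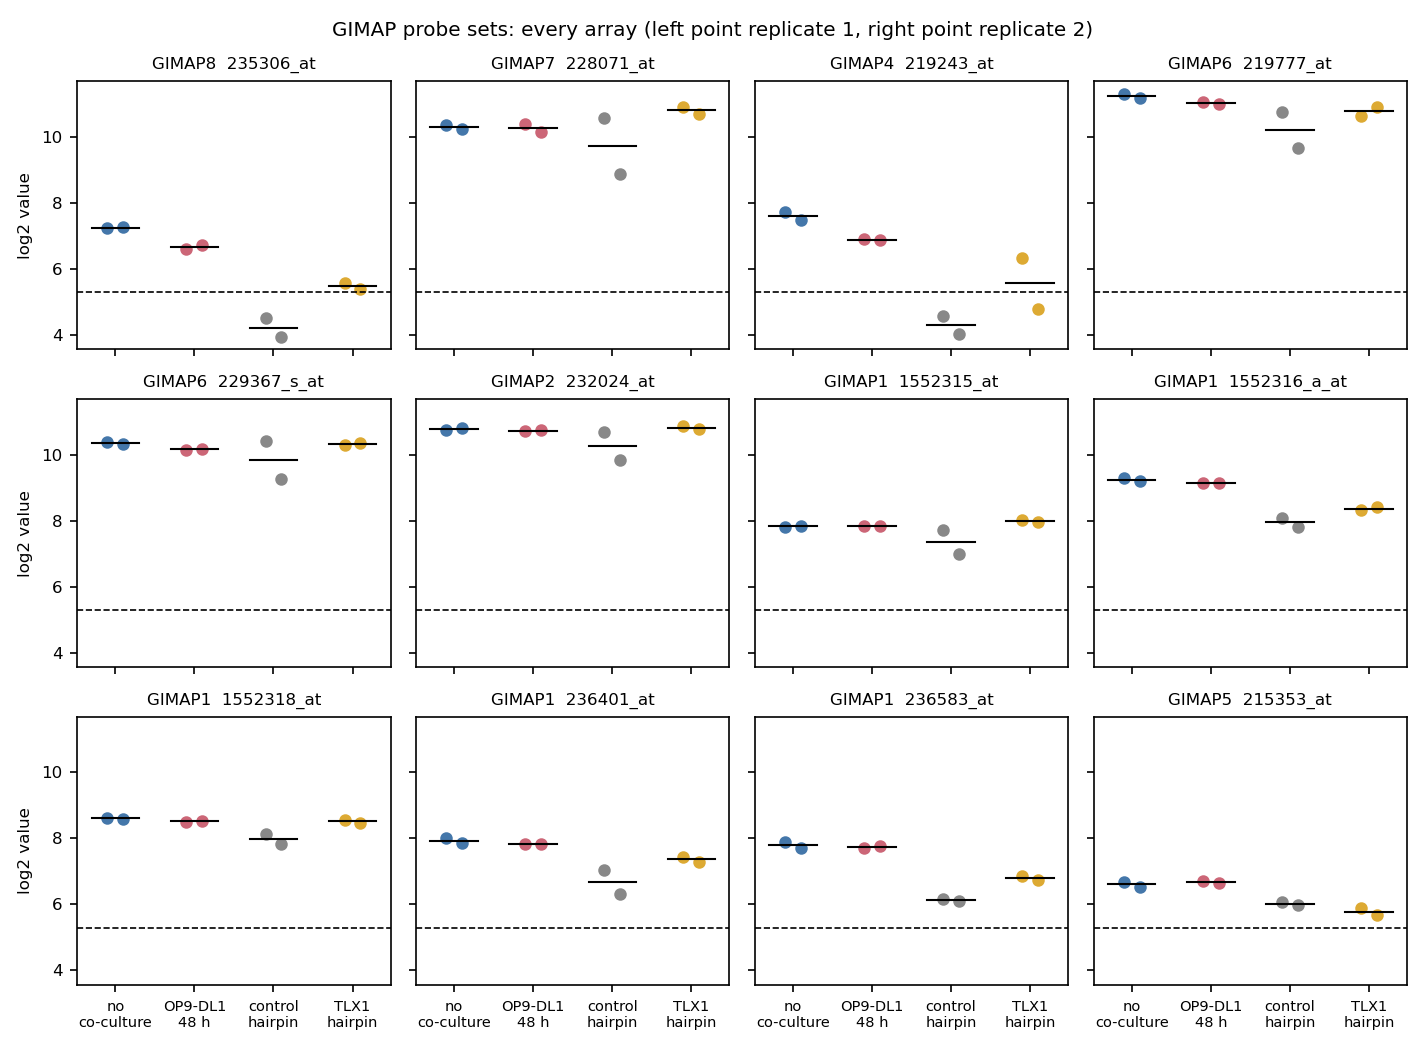
Log2 value (vertical axis) of the 12 tested GIMAP probe sets in every array, by group; points are arrays, short bars are group means and the dashed line is the array median. GIMAP8 and GIMAP4 lay at 6.60 to 7.72 in the co-culture experiment and dropped toward or below the dashed line in the hairpin experiment, and the second control hairpin array was the lower of its pair in all 12 panels.

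The first question was how the family changed when TCR-carrying cells were placed on OP9-DL1. GIMAP8 and GIMAP4 fell, and the other 5 genes did not pass the test. GIMAP8 (235306_at) read 7.24 and 7.25 without co-culture and 6.60 and 6.73 after it. Its groups did not overlap, and the change was -0.59 on the log2 scale (SE 0.08, 95% interval -0.78 to -0.39, limma adjusted p = 0.0433). GIMAP4 (219243_at) read 7.72 and 7.49 without co-culture and 6.90 and 6.88 after it. These groups were also apart, with a change of -0.71 (SE 0.09, interval -0.96 to -0.47, adjusted p = 0.0483), or 1.64-fold lower. On the chromosome these genes are not neighbours, since GIMAP7 lies between them.

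Of the 12 member probe sets, 2 fell, 0 rose and 10 did not pass. Among all 30816, 1.41% were called, 0.802% lower and 0.613% higher. These calls lay close to the threshold and did not survive every treatment of the arrays. In 1 model of all 4 groups, which lends these probe sets the larger spread of the hairpin arrays, the adjusted p was 0.502 for GIMAP8 and 0.920 for GIMAP4. With any array of the experiment left out neither passed: the adjusted p was 0.0858 to 0.264 for GIMAP8 and 0.119 to 0.171 for GIMAP4, while the changes stayed between -0.65 and -0.52 and between -0.83 and -0.60.

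GIMAP6 was the only other gene with intervals below 0, and both of its probe sets agreed. The 219777_at probe set read 11.31 and 11.19 without co-culture and 11.05 and 10.99 after it, a difference of -0.23 (interval -0.42 to -0.04, limma adjusted p = 0.191). The 229367_s_at probe set, whose suffix marks probes shared by several transcripts, read 10.38 and 10.32, then 10.15 and 10.18, a difference of -0.18 (interval -0.35 to -0.01, adjusted p = 0.217). Neither passed, although the arrays of the groups did not overlap in either probe set.

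GIMAP7, the activator of GIMAP2, and GIMAP2 itself stayed within small bounds. GIMAP7 (228071_at) read 10.35 and 10.23 without co-culture and 10.39 and 10.14 after it, with overlapping groups and an interval of -0.30 to 0.25 for the difference. GIMAP2 (232024_at) read 10.75 and 10.80, then 10.71 and 10.73, a difference of -0.05 with an interval of -0.22 to 0.12. A halving would be -1 on this scale, and it lies outside both intervals.

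GIMAP1, the Golgi member, had 5 tested probe sets, whose differences ran from -0.11 (236401_at) to 0.02 (1552315_at). The widest of their intervals were -0.31 to 0.09 for 236401_at and -0.30 to 0.15 for 236583_at. The only GIMAP5 probe set without a second gene name (215353_at) read 6.69 and 6.52 without co-culture and 6.72 and 6.66 after it, a difference of 0.09 (interval -0.13 to 0.30). Another 3 probe sets name GIMAP5 together with the GIMAP1-GIMAP5 readthrough transcript and are not counted among the members. Of these, 218805_at read 9.42 and 9.37, then 9.38 and 9.40, and 64064_at read 9.80 and 9.77, then 9.82 and 9.82. The third, 215352_at, lay below the median on every array and was not tested. It read 3.97 and 3.98, then 4.89 and 4.27, a difference of 0.60 with groups apart. None of the GIMAP5 probe sets above the median passed the test.

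By sign, 10 of the 12 member probe sets were lower after co-culture and 2 higher, with a median difference of -0.09, where the median over all probe sets tested was 0.01. The groups did not overlap, on the lower side, in 8 of 12, where 25.2% of all tested probe sets had this. On the higher side this held in 0 of 12, where 27.1% of all had it. GIMAP1 and GIMAP6 enter these counts with several probe sets each, which are repeat readings of the same gene.

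**Figure D2:**
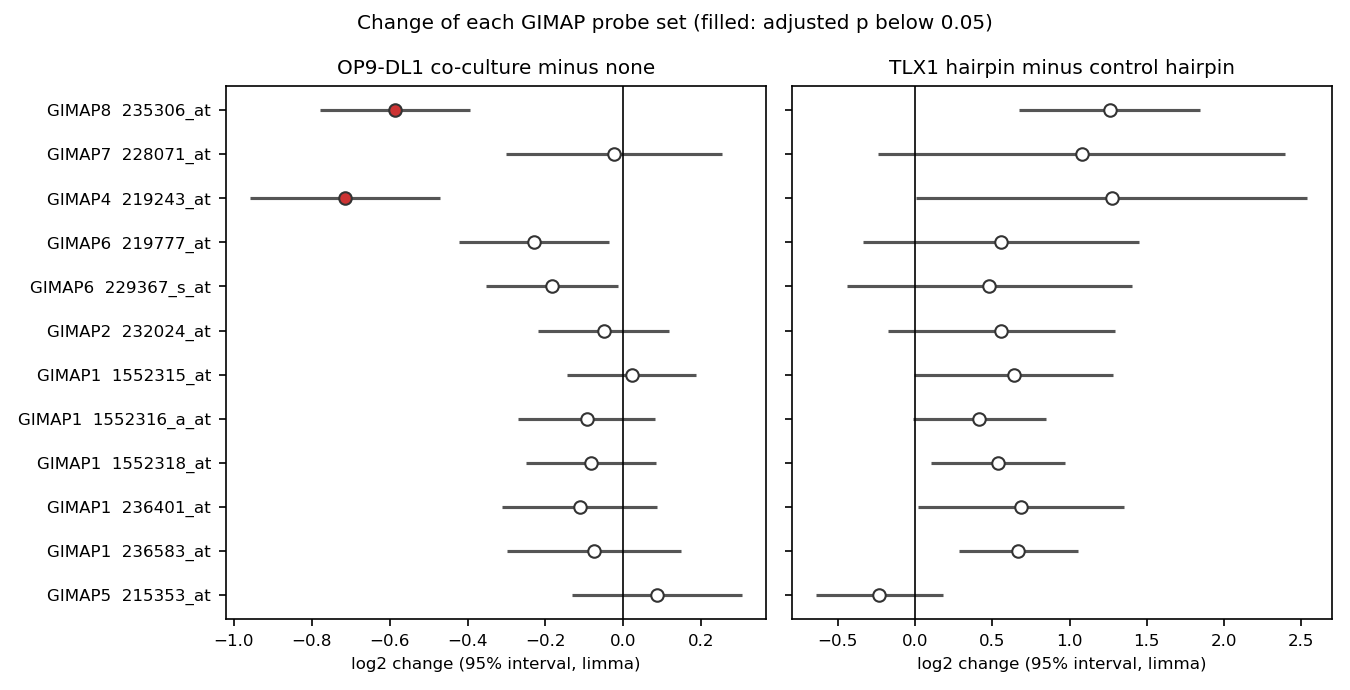
Log2 change of the 12 tested GIMAP probe sets, in their order along chromosome 7, with 95% limma intervals; left OP9-DL1 co-culture minus none, right TLX1 hairpin minus control hairpin, on axes of different width. Filled points passed the threshold: GIMAP8 and GIMAP4 at left, none at right, where 11 of 12 lay above 0.

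Other features of the co-cultured arrays moved with these falls. Of 13 granulocyte granule genes, 9 were tested and 5 rose, among them RNASE2 by 5.05 and DEFA4 by 3.35 on the log2 scale. MPO was lower, with a group mean of 8.69 without co-culture and 7.98 after it (limma adjusted p = 0.0675). The mean of the 9 went from 5.51 and 5.54 to 7.25 and 7.21. The genes named here from cell type lists were chosen after their values were seen, as were those of the next paragraph. Of 13 myeloid and monocyte genes, 4 were tested and 2 rose (CEBPA and S100A8), and 7, among them CD14, LYZ and SPI1, were too dim to test. Among probe sets of chromosome Y genes, 18 from 10 genes were called, and all 18 fell, with a median change of -2.80. These values cover only the called ones. In bulk RNA, fewer cells of a type and less RNA per cell cannot be told apart. The part of these features in the GIMAP differences was not tested.

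Markers of further cell types that can express GIMAP genes gave no call. Among B cell genes 5 of 10 were tested, among NK genes 6 of 10 and among endothelial genes 8 of 11, with 0 called in each by limma and 2, 2 and 1 at an unadjusted p under 0.05. The endothelial mean was 6.06 and 6.07 without co-culture and 6.20 and 6.09 after it. The B cell mean was 6.87 and 6.98, then 6.91 and 6.89, and the NK mean 7.20 and 7.30, then 7.31 and 7.30. Within the NK mean the 2 genes moved in opposite directions, GZMB by -0.65 and TYROBP by 0.59 (limma adjusted p = 0.0565 and 0.125). The mean of 8 stromal genes was higher in 1 array of each group (6.51 and 6.96, then 6.86 and 6.30), and PDGFRB, the only stromal gene called, fell by 0.53. Of 14 T cell markers, the adhesion receptor CD2 fell by 0.69 (limma adjusted p = 0.0258) and 13 did not pass.

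The genes around the family were described from lists. Of 16 tested genes of T-cell maturation and quiescence, the setting in which GIMAP genes are normally high, 3 fell and 1 rose, with a median difference of -0.18. The thymic exit receptor S1PR1 fell by 0.73 and KLF3, a zinc finger repressor of the KLF family, by 0.63. FOXO1, a forkhead factor active in resting T cells and named after its values were seen, fell by 1.10, while TXNIP, which limits glucose entry, rose by 1.19. Among 18 tested Notch pathway genes and targets the median was -0.12, and IL7R, the interleukin 7 receptor, fell by 0.62. The Notch effector HES1 had a group mean of 9.08 without co-culture and 8.14 after it (limma adjusted p = 0.0543). For the Notch target DTX1 these means were 9.56 and 9.10 (limma adjusted p = 0.0564).

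In the BCL2 family, with which GIMAP proteins have been found to associate, BCL2L11 (the death inducer BIM) fell by 0.65 and 12 of 13 did not pass. Its pro-apoptotic relatives BIK and BMF differed by -0.50 and 0.46 (limma adjusted p = 0.0534 and 0.0624), and the list median was -0.01. Of 15 ATG8 family and autophagy genes 0 passed by limma (2 at an unadjusted p under 0.05), with a median of 0.07, differences of 0.19 for the E1-like enzyme ATG7 and 0.24 for the lipid-binding WIPI1, and a difference of -0.17 for the conjugation factor ATG12. Of 11 other immunity GTPases 0 passed by limma (4 unadjusted) and 10 were lower by sign, with a median of -0.13 and the largest of the named differences for the guanylate-binding proteins GBP5 (-0.43) and GBP3 (-0.37), beside the interferon-induced GTPase MX2 (-0.22).

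Genes that flank the GIMAP cluster on chromosome 7 gave no call: 0 of 13 passed by limma (1 unadjusted), the median was -0.01, and the named members were the zinc finger gene REPIN1 (-0.28), the FAS-activated kinase gene FASTK (0.10) and the membrane protein gene TMEM176A (0.14). The 7 calls among the pathway genes and CD2 were also tried with arrays left out. The limma adjusted p reached 0.234 for BCL2L11, 0.242 for CD2, 0.254 for FOXO1, 0.227 for IL7R, 0.232 for KLF3, 0.193 for S1PR1 and 0.153 for TXNIP (each without no_TCR_activation replicate 2). In the 4-group model FOXO1 and TXNIP kept their calls, and BCL2L11 (0.0514), S1PR1 (0.108), KLF3 (0.146), IL7R (0.241) and CD2 (0.467) did not.

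**Figure D3:**
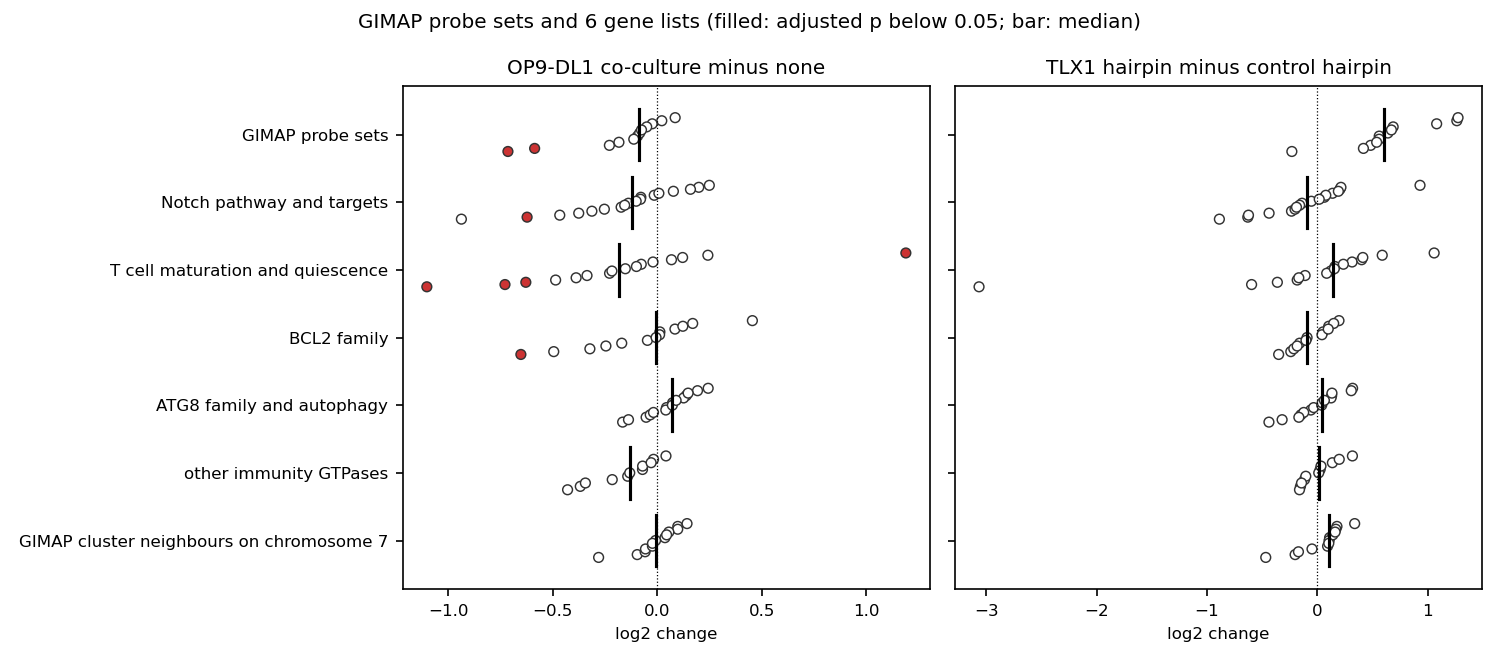
Log2 changes (horizontal axis) of the GIMAP probe sets and of the tested genes of 6 lists in both comparisons, on axes of different width; filled points passed the threshold and bars are medians. At left GIMAP8 and GIMAP4 stand apart from the other GIMAP points, and at right the GIMAP median of 0.60 lies beside list medians between -0.10 and 0.14.

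The second question was how the family differed when TLX1 was targeted. Here 11 of the 12 member probe sets were higher with the TLX1 hairpin than with the control hairpin, with a median difference of 0.60 where all tested probe sets had a median of 0.00, but none passed the threshold. Limma called 0 of 30816 probe sets in this comparison (0% in either direction), with 950 at an unadjusted p under 0.05, and 20 in 1 model of all 4 groups, none of them a member. The adjusted p of every member was 1. On the higher side the groups did not overlap in 9 of the 12 member probe sets, where 14.2% of all tested probe sets had this. All tested GIMAP1 probe sets are among the 9, as repeat readings of 1 gene and not as separate members.

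GIMAP8 and GIMAP4 had the widest differences, from levels below the array median. GIMAP8 read 4.52 and 3.93 with the control hairpin and 5.57 and 5.39 with the TLX1 hairpin, a difference of 1.26 (SE 0.24, interval 0.68 to 1.85, limma adjusted p = 1). GIMAP4 read 4.57 and 4.02 with the control hairpin and 6.34 and 4.79 with the TLX1 hairpin, a difference of 1.27 (SE 0.51, interval 0.00 to 2.54). Since the control arrays of both genes lay below the array median, where the scale is compressed, the sizes are not exact, and the second TLX1 hairpin array for GIMAP4 was close to the controls while the first was not.

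GIMAP7 read 10.58 and 8.87 with the control hairpin and 10.90 and 10.70 with the TLX1 hairpin. Its difference of 1.08 came with an interval of -0.24 to 2.40, and the second control array minus the first was -1.70. GIMAP2 read 10.68 and 9.83, then 10.87 and 10.76, a difference of 0.56 (interval -0.18 to 1.29). The first control array of each gene was just below the TLX1 hairpin arrays, and the second was far below.

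GIMAP6 showed the same arrangement, with 10.75 and 9.67, then 10.65 and 10.89, for 219777_at. Its 229367_s_at probe set read 10.41 and 9.26, then 10.29 and 10.34. In this gene the first control array fell inside or above the TLX1 hairpin arrays, so the groups overlapped in both probe sets.

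All 5 GIMAP1 probe sets were higher with the TLX1 hairpin, by 0.42 to 0.69, and in all 5 the groups were apart, but their control arrays were not equally close. The probe set 236583_at read 6.16 and 6.09 with the control hairpin and 6.86 and 6.74 with the TLX1 hairpin, a difference of 0.67 (SE 0.15, interval 0.28 to 1.05), and its control arrays differed by only -0.07 (replicate 2 minus 1). The probe set 1552318_at read 8.13 and 7.84, then 8.56 and 8.47, a difference of 0.54 (interval 0.10 to 0.97). In 1552315_at (7.35 ± 0.50, then 7.99 ± 0.04, SD, n = 2) and 236401_at (6.68 ± 0.53, then 7.37 ± 0.10) the second control array was lower by more, with differences of -0.71 and -0.74 from the first. Without that array the GIMAP1 differences were 0.28 for 1552315_at (0.64 with it), 0.31 for 236401_at (0.69), 0.27 for 1552316_a_at (0.42), 0.39 for 1552318_at (0.54) and 0.63 for 236583_at (0.67).

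For GIMAP5 the probe sets disagreed. The member probe set 215353_at read 6.06 and 5.97 with the control hairpin and 5.89 and 5.67 with the TLX1 hairpin, a difference of -0.23 and the only member below 0. The probe sets shared with the readthrough transcript were higher instead, 218805_at at 9.24 and 7.45, then 9.87 and 9.20, and 64064_at at 9.37 and 8.32, then 9.93 and 9.47. Their second control array was low, as in GIMAP7 and GIMAP2. Unlike in those genes, the groups overlapped in 218805_at (9.20 with the TLX1 hairpin against 9.24 with the control), while in 64064_at they were apart.

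The second control hairpin array, shRNA_control replicate 2, thus carried much of the family's difference. It lay below replicate 1 in all 12 member probe sets. The difference ran from -0.07 (GIMAP1 236583_at) to -1.70 (GIMAP7), with a median of -0.65. In 8 of the 12 it was lower by over 0.5, as in 11.3% of all tested probe sets, and in 3 by over 1, as in 1.59%. In the group without co-culture the corresponding median was -0.10, after co-culture 0.01 and with the TLX1 hairpin -0.11. The T cell marker mean was also lower in that array (8.91 against 9.19 in replicate 1). That gap leans on 1 marker, CD28, whose SD between the control hairpin arrays was 2.53. The SDs of the other markers there ran from 0.10 (LCK) to 0.62 (CD5). The actin 3′ minus 5′ signal, a measure of RNA integrity, was 0.81 there against 0.57, 0.66 and 0.83 in the other hairpin arrays. Their part in the low GIMAP values was not tested.

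**Figure D4:**
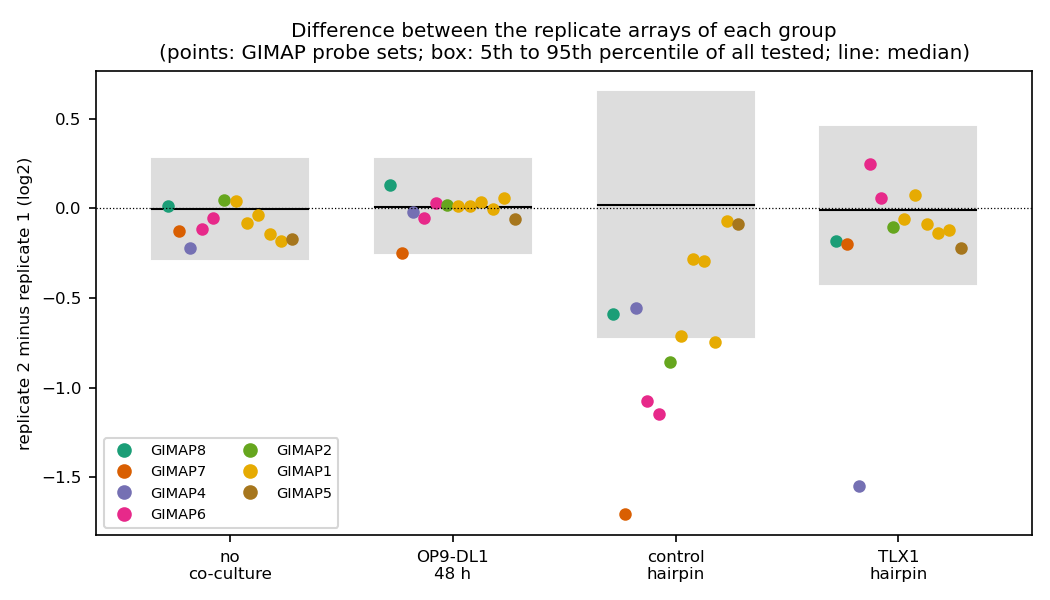
Replicate 2 minus replicate 1 (log2, vertical axis) in each group; points are the 12 GIMAP probe sets, boxes span the 5th to 95th percentile of all tested probe sets and lines are medians. The points of the control hairpin group all lie below 0, down to -1.70, while those of the other groups stay near 0 except GIMAP4 with the TLX1 hairpin at -1.55.

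Without shRNA_control replicate 2, 10 of 12 member probe sets were still higher with the TLX1 hairpin. The median difference over the 12 was 0.28 in place of 0.60, with values from -0.28 to 0.99. GIMAP8 differed by 0.97 and GIMAP4 by 0.99 in that comparison, which rests on a lone control array assumed to vary like the others. Without replicate 1 instead, the median was 1.02, with GIMAP7 at 1.93 and GIMAP8 at 1.56.

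The lists around the family had smaller medians, and the family was not tested against them. With the TLX1 hairpin the medians were -0.10 for Notch genes, -0.09 for the BCL2 family, 0.04 for autophagy genes, 0.01 for other immunity GTPases, 0.14 for maturation and quiescence genes (10 of 16 higher), 0.10 for the neighbours on chromosome 7 (9 of 13 higher) and 0.24 for the T cell markers (10 of 14 higher), with 0 passing by limma in each. At an unadjusted p under 0.05 there were 2 Notch genes, 2 maturation genes and 3 T cell markers, and 0 in the other 4 lists. In the Notch list DTX1 differed by 0.93, NOTCH1 by -0.62 and HES1 by -0.63. In the maturation list the glycoprotein gene CD52 differed by 1.06, the lymph node homing receptor CCR7 by -3.06 and the antiproliferative gene TOB1 by -0.60. CCR7 varied widely between replicates (8.57 ± 0.93 with the control hairpin, 5.50 ± 1.59 with the TLX1 hairpin, SD, n = 2). In the other lists the named differences were smaller: BCL2L2 (-0.24), MCL1 (-0.21) and BCL2 (-0.35), GABARAPL1 (-0.44), MAP1LC3A (0.31) and ATG4B (-0.32), MX1 (0.32), MX2 (-0.16) and GBP5 (-0.15), and the neighbours ZNF862 (-0.47), ABCB8 (0.34) and TMUB1 (-0.20).

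Set side by side, GIMAP8 and GIMAP4 were lower after co-culture and higher with the TLX1 hairpin, in comparisons that share no arrays. The difference between the changes was tested in 1 model of all arrays with a weight per experiment. It was -1.85 for GIMAP8 (SE 0.24, limma adjusted p = 0.0209), the only member past the threshold, where 0.331% of all probe sets passed. For GIMAP4 it was -1.99 (SE 0.48, limma adjusted p = 0.260). The control hairpin arrays of both genes lay below the array median (4.52 and 3.93, and 4.57 and 4.02), so these sizes are not exact. Within the hairpin experiment GIMAP8 was above the median only with the TLX1 hairpin (5.57 and 5.39). The GIMAP8 call was kept without TCR_activation replicate 2 or without shRNA_control replicate 1 and lost without any of the other 6, the highest adjusted p being 0.462 without shRNA_TLX1 replicate 1.

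Levels were also set side by side between the experiments, without a test. The group without co-culture was above the control hairpin group by 3.31 for GIMAP4 (7.60 against 4.29). For GIMAP8 235306_at it was above by 3.03 (7.25 against 4.22). Both control hairpin arrays of these 2 probe sets lay below the array median and all 4 arrays of the co-culture experiment above it. These sizes are therefore not exact, and neither probe set would have met the filter on the control hairpin arrays. The untested GIMAP8 probe set 240646_at, below the median on all 8 arrays, went the other way (3.61 against 4.30). Its differences, -0.09 after co-culture and 0.06 with the TLX1 hairpin, came with overlapping groups. For the other tested members the gap was 0.47 (GIMAP1 1552315_at) to 1.68 (GIMAP1 236583_at). In 7 of 12 member probe sets, several of them GIMAP1, all 4 co-culture experiment arrays were above all 4 hairpin arrays. The same held in 31.5% of all tested probe sets. The order of the group means was the same for GIMAP4, GIMAP8 235306_at, GIMAP6 219777_at and GIMAP1 1552316_a_at, 1552318_at, 236401_at and 236583_at. Within each it was highest without co-culture, then after it, then with the TLX1 hairpin, and lowest with the control hairpin. Neighbours in that order overlapped for 236583_at without and after co-culture (7.90 and 7.71 against 7.70 and 7.76) and for GIMAP6 219777_at with the TLX1 and the control hairpin (10.65 and 10.89 against 10.75 and 9.67). For 1552318_at the co-cultured and TLX1 hairpin arrays overlapped (8.51 and 8.54 against 8.56 and 8.47). The other tested member probe sets broke this order. The TLX1 hairpin mean was the highest for GIMAP7 (10.80), GIMAP2 (10.82) and GIMAP1 1552315_at (7.99). For GIMAP6 229367_s_at it was above the co-cultured mean (10.31 against 10.17), and for GIMAP5 215353_at it was the lowest (5.78). How many of all tested probe sets keep the order was not counted. Vector and puromycin selection differ between the experiments by label, and the actin 3′ minus 5′ signal was 2.30 to 2.71 in the co-culture arrays against 0.57 to 0.83 in the hairpin arrays. Their parts in the gap cannot be told apart.

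After subtraction of each experiment's mean, the 66 pairs of member probe sets had a median Pearson r of 0.84 over the 8 arrays, from -0.63 (GIMAP5 with GIMAP8) to 0.99 (GIMAP7 with GIMAP2), and 55 were positive. The 11 others all involve GIMAP5, and 11 of the 66 pairs are probe sets of 1 gene. GIMAP4 and GIMAP8 gave 0.85. These points share their arrays, shRNA_control replicate 2 enters every pair, and no r was taken within an experiment. The averaged family deviation was 0.13 and 0.04 without co-culture, -0.08 and -0.09 after it, 0.01 and -0.67 with the control hairpin and 0.43 and 0.23 with the TLX1 hairpin, so the hairpin arrays spread more and weigh more in each r. The genes outside the family most like this average over the 8 arrays were the casein kinase gene CSNK1G2 (r = 0.998), the chondroitin sulfate enzyme gene CSGALNACT1 (0.996), the striatin gene STRN (0.994), the nucleoside transporter gene SLC29A1 (0.994) and the BMP receptor gene BMPR2 (0.993). They were picked as the highest of the tested probe sets, so the values describe the selection.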

How the data were processed

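The 8 arrays were deposited as log2 values per probe set, which the submitters' processing notes credit to RMA and affy under R 2.9.0; RMA settings are not given in the sources used here. All arrays had the same lowest and highest value (2.15 and 14.3), so a shift of a whole array cannot be seen, and the number of arrays limits the precision. Probe sets were named from the platform annotation; 1801 with several symbols and 11777 with none were not named. Probe sets above their array's median in at least 2 arrays were tested with limma 3.58.1 in R 4.3.3 (lmFit, eBayes), each experiment alone, with Benjamini-Hochberg adjustment over all tested and a threshold of 0.05. Fits were tested on simulated data. A gene on a list was represented by its tested probe set with the highest mean.

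Named were all members, TLX1, up to 3 genes per pathway list and comparison by smallest p, and the 5 genes most like the family; others are marked as chosen after their values were seen. The members and lists were chosen with earlier results of these data known, as was the choice to fit each experiment alone. Promoter windows are from RefSeq. Groups and replicate numbers come from the sample titles.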

Additional observations from a re-analysis of the deposited data

How the results depend on the processing

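The 2 member falls after co-culture kept their direction under every setting tried, and their calls held with 1 probe set per gene, averaged probe sets per gene, no filter, a stricter filter (1 log2 unit above the array median), eBayes with trend, array weights and centred arrays. They were lost in 1 model of all 4 groups and with a replicate block (0 members in each; adjusted p = 0.0646 for GIMAP8 and 0.0511 for GIMAP4 with the block) and without any single array (0 to 0). Over all probe sets, 436 were called after co-culture; the count was 151 in the 4-group model, 866 with 1 probe set per gene, 792 with averaged probe sets, 1832 with trend and 17 to 202 with an array left out. In the hairpin comparison the count of 0 became 20 in the 4-group model and 0 to 367 with an array left out, and the member count 0 to 2. The difference of the changes called 102, and 8 to 490 with an array left out. Small differences changed sign without 1 array: GIMAP7 (-0.15 to 0.10) and GIMAP1 236583_at (-0.17 to 0.017) after co-culture, and GIMAP6 229367_s_at (-0.091 to 1.05) with the hairpin. With 1 array left out a group holds a lone array, assumed to vary like the others. Same-numbered arrays share only a number: their deviations correlated at -0.06 in the co-culture and 0.34 in the hairpin experiment, and the replicate block gave 349 and 0 calls. Among the list genes it ended the calls of BCL2L11 (adjusted p = 0.0514), FOXO1 (0.0504), IL7R (0.0514) and KLF3 (0.0502) and kept those of CD2, S1PR1 and TXNIP. The granulocyte, myeloid and PDGFRB calls were not tried under other settings. The cause of these changes was not tested.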
